A study of Arabidopsis thaliana and Solanum lycopersicum with 40 samples.

Results

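Roots of Arabidopsis thaliana seedlings that had been shaded for 3 d were compared with roots of seedlings of the same age that stayed unshaded. Per the labels, seedlings of the accession Col-0 grew on MS agar plates in constant white light for 5 days and then were moved to shade or kept unshaded for 3 d more, and whole roots were frozen for RNA sequencing. The comparison used 2 shaded libraries (a and b) and 2 unshaded libraries (a and b), which is 4 of the 40 samples of the series. Genes entered the tests where their FPKM (fragments per kilobase of transcript, scaled to the mapped total) averaged at least 1 over all 24 Arabidopsis libraries, which held for 19553 of 33557 identifiers. Shaded and unshaded libraries taken at 1 d and at 5 d served to place the response at 3 d in time. The spectrum and intensity of the shade are not given in the sources used here. Nothing in the labels says whether libraries a and b came from separate plates, so p-values measure the spread between these samples only.

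Shade lowers the light available for photosynthesis and, under a canopy, the ratio of red to far-red light, which phytochromes sense. Roots on a plate depend on sugar made in the shoot, and plant cells short of carbon are known to turn to amino acids and other reserves as fuel. Roots also take up nitrate, sulfate, iron and phosphate for the whole plant, and in Arabidopsis and its relatives they hold glucosinolates, sulfur-rich defence compounds built from amino acids.

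Per library, FPKM values summed to 910665 and 902033 in the shaded libraries, against 938414 and 943506 in the unshaded ones. The table holds no read counts, so the absolute depth is unknown, but steps in the low values gave relative depths of 1.15 and 1.1 for the shaded pair, against 0.918 and 0.998 for the unshaded pair. Pearson's r between the replicates, across genes, which are not independent of each other, was 0.980 for the shaded pair and 0.982 for the unshaded pair. All 20 root tissue markers examined were tested, and their summed FPKM was 413 and 431 in shaded libraries, against 413 and 395 in unshaded libraries. The 4 root markers of smallest adjusted p-value were COBL9 and CPC of the epidermis, CEL5 of the root cap and CASP1 of the endodermis. Their log2 fold changes were -0.47, -0.42, 0.39 and 0.23. Of 15 shoot markers, 4 passed the filter. The guard-cell and leaf regulators YAB1, MUTE, FAMA and EPF2 were listed at 0 in all 4 libraries. The Rubisco small subunit gene RBCS1A did not sit at 0: its FPKM was 55.4 and 46.9 in shaded roots, against 14.1 and 19.5 in unshaded roots. Its family members RBCS1B, RBCS2B and RBCS3B and the shoot marker CA1 did not pass the filter. They reached at most 0.0594, 0.199, 0.335 and 0.158 FPKM in the 4 libraries. The summed shoot markers came to 124 and 123 in shaded libraries, against 69.0 and 76.4 in unshaded libraries. The other 3 shoot markers tested were RCA, Rubisco activase, at a log2 fold change of 0.47, the leaf growth regulator AN3 at 0.33, and the Calvin cycle gene SBPASE at -0.10, which was not called. The part of shoot tissue in the results below was not tested. In whole roots, fewer cells of a type and less RNA per cell cannot be told apart.

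After 3 d of shade, 11376 of the 19553 genes passed the threshold (58.2%), a Benjamini-Hochberg adjusted p-value under 0.05 in limma on log2(FPKM + 1). Of these, 5595 were higher (28.6% of genes tested) and 5781 lower (29.6%) in shaded roots. Most of the differences were small. The median size among the genes called was 0.43 on the log2 scale, and 6674 of them lay under 0.5. A difference of at least 2-fold was called for 1591 genes (8.14%), with 974 higher (4.98%) and 617 lower (3.16%). The shaded libraries lay entirely above or entirely below the unshaded ones for 15749 genes (80.5%). For 1 gene taken alone, the smallest p-value that exact permutation of 2 against 2 libraries allows is 0.333, and every call therefore rests on the spread that limma shares across genes and groups. Genes that encode no protein or are not in the reference made up 250 of the genes called, and 24 genes called had both libraries of a group listed at 0, so no fold is given for them. Of the genes described below, AK3, BCAT2, MCCA, DIN4, ETFQO, THA1, ASN1, DIN10, P5CDH, NBR1, STP1, IMD3, AT2G31790, CYP81F1, AK-HSDH I, NRT1.5, AMT1;1, UPM1, APR1, BHLH101, MYB10, CYCD3;1, AUR1, KNOLLE, CASP1, FAR1, RCA, LHCB1.3, LHCB1.5, LHCB3, LHCA4, CAO, GUN4, TT4, BBX24, ELF3, IAA3, IAA13, ARR6, MYC2, NPR1, ABI1, CPD, DET2, ROT3 and ADH1 also overlap another annotated gene, most of them on the other strand, and their reads cannot be told apart from that gene's here. Counts for the gene lists below are set against the shares over all genes, 28.6% higher and 29.6% lower.

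**Figure D1:**
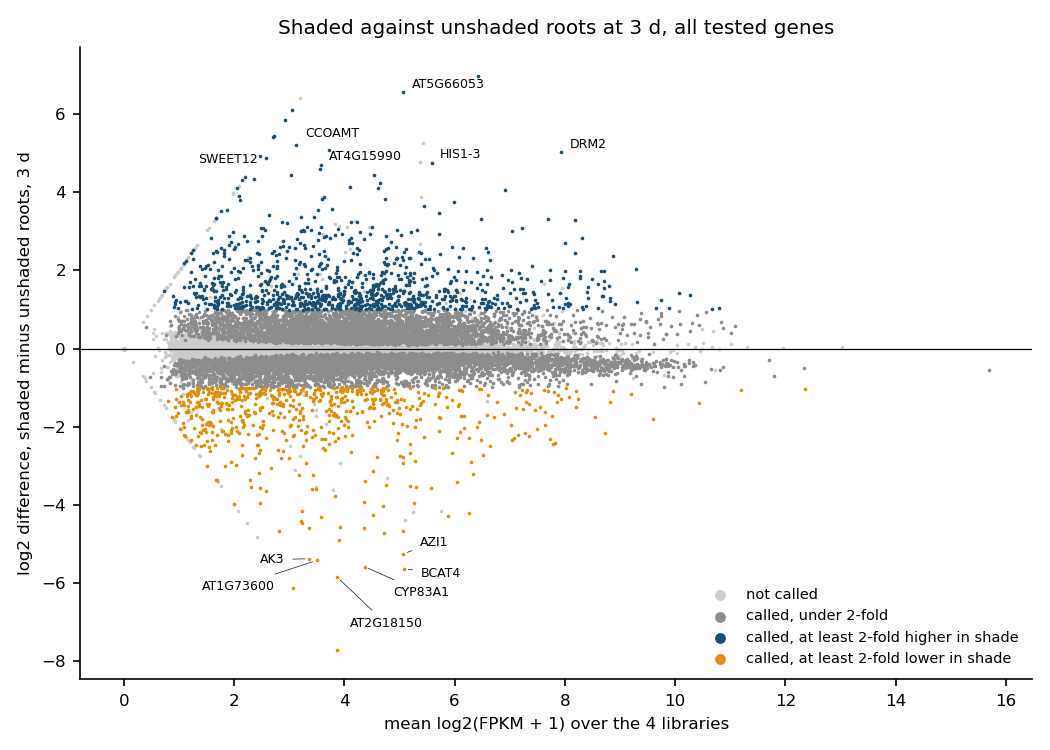
Difference between shaded and unshaded roots at 3 d (y axis, log2 of FPKM + 1) against the mean level over the 4 libraries (x axis, log2 of FPKM + 1) for the 19553 genes tested, with genes called at least 2-fold coloured by direction and the other called genes in dark grey. The 974 genes at least 2-fold higher and the 617 at least 2-fold lower in shade are spread over low and high levels.

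The 12 largest rises included a sugar exporter, an enzyme that degrades methionine, a senescence-associated gene and several genes with no described function. AT5G66053, an uncharacterized gene, had 409 and 260 FPKM in shaded roots, against 0.938 and 5.21 in unshaded roots. Its log2 fold change of 6.56 ± 0.77 (SE, limma adjusted p = 3.92e-06) was the largest among the genes named, but it overlaps AT5G66052 on the other strand, and the sources used here do not state whether counting used the strand. CCOAMT, a caffeoyl-CoA O-methyltransferase of the phenylpropanoid pathway that leads to lignin, reached 47.8 and 57.2 FPKM in shaded roots, against 0.645 and 0.268 in unshaded roots (log2 fold change 5.21 ± 0.37, limma adjusted p = 2.81e-08). Both shaded libraries were far above both unshaded ones for each of these genes. DRM2 (AT2G33830, of the dormancy- and auxin-associated family, not the DNA methyltransferase that shares the symbol) was among the most abundant transcripts that rose. It had 1203 and 1631 FPKM in shaded roots and 36.5 and 47.5 FPKM in unshaded roots, a log2 fold change of 5.04 ± 0.28 (limma adjusted p = 2.92e-09). HIS1-3, a linker histone known to be induced by drought, had 218 and 285 FPKM in shaded and 7.61 and 8.85 FPKM in unshaded roots, which is a log2 fold change of 4.76 ± 0.27 (limma adjusted p = 4e-09).

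SWEET12, a sugar exporter known from phloem loading in leaves, had 19.4 and 50.2 FPKM in shaded roots and 0.11 and 0.101 FPKM in unshaded roots (log2 fold change 4.87 ± 0.36). The unshaded values were near the low end of what the libraries resolve, so the size of that fold change depends on the pseudocount. MGL, methionine gamma-lyase, which breaks methionine down, had 72.8 and 161 FPKM in shaded and 4.33 and 5.34 FPKM in unshaded roots, with a log2 fold change of 4.23 ± 0.26 (limma adjusted p = 8.1e-09). It overlaps AT1G64670 on the other strand. SAG13, a senescence-associated dehydrogenase, had 37.8 and 36.3 FPKM in shaded roots, against 0.745 and 0.762 in unshaded roots. CBP60G, a calmodulin-binding regulator of salicylic acid synthesis, had 67.9 and 73.8 FPKM in shaded roots, against 3.48 and 2.72 in unshaded roots. The log2 fold changes of this pair were 4.44 ± 0.46 and 4.14 ± 0.44. The other 4 of the 12 largest rises were AT4G15990, AT1G58320 of the PLAC8 family, AT1G19530 and AT3G55790, with log2 fold changes of 4.71, 4.6, 4.45 and 4.33. AT3G55790 was listed at 0 in 1 unshaded library, and AT1G19530 differed widely between the shaded libraries, at 56.6 and 206 FPKM.

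Of the 12 largest falls, 3 were in genes that make aliphatic glucosinolates (BCAT4, CYP83A1 and IPMI2) and 3 in genes that take up or reduce potassium, nitrate and sulfate (HAK5, NIA1 and SULTR3;5). AT2G18150, a peroxidase family gene, had 1.04 and 0.812 FPKM in shaded roots and 111 and 109 FPKM in unshaded roots, a log2 fold change of -5.85 ± 0.31 (limma adjusted p = 2.06e-09). BCAT4, the aminotransferase that starts the elongation of methionine for glucosinolates, had 2.41 and 5.79 FPKM in shaded and 235 and 243 FPKM in unshaded roots (log2 fold change -5.64 ± 0.27, limma adjusted p = 8.97e-10). It overlaps AT3G19700 on the other strand. The replicates of these genes lay close together in unshaded roots, and the groups were separated by more than an order of magnitude. AK3, an aspartate kinase at the head of methionine, lysine and threonine synthesis, had 0.47 and 0.738 FPKM in shaded roots and 68.8 and 62.7 FPKM in unshaded roots (log2 fold change -5.38 ± 0.20, limma adjusted p = 6.34e-11). AZI1, a lipid-transfer-like protein of systemic immunity, had 3.93 and 4.99 FPKM in shaded roots, against 209 and 205 in unshaded roots. GASA5, a gibberellin-regulated cysteine-rich peptide, had 7.44 and 4.12 FPKM in shaded roots, against 158 and 178 in unshaded roots. The log2 fold changes were -5.26 ± 0.24 for AZI1 and -4.68 ± 0.43 for GASA5.

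HAK5, the high-affinity potassium transporter of roots, had 0.606 and 0.229 FPKM in shaded roots and 35.7 and 33.6 FPKM in unshaded roots (log2 fold change -4.66 ± 0.20, limma adjusted p = 2.95e-10). NIA1, a nitrate reductase, had 4.2 and 2.39 FPKM in shaded and 114 and 88.8 FPKM in unshaded roots (log2 fold change -4.6 ± 0.19, limma adjusted p = 2.12e-10). SULTR3;5, a sulfate transporter that acts in the transfer of sulfate from root to shoot, had 1.17 and 1.01 FPKM in shaded and 49.6 and 48.9 FPKM in unshaded roots (log2 fold change -4.59 ± 0.16, limma adjusted p = 3.96e-11). Each of these transport and reduction genes was close to the low end of the scale in shaded roots and well expressed in unshaded roots. The remaining falls of the 12 were CYP83A1 (log2 fold change -5.58 ± 0.15), AT1G73600 of a methyltransferase family (-5.43 ± 0.34), AT2G33850, an E6-like gene (-4.91 ± 0.30), and IPMI2 (-4.73 ± 0.15).

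**Figure D2:**
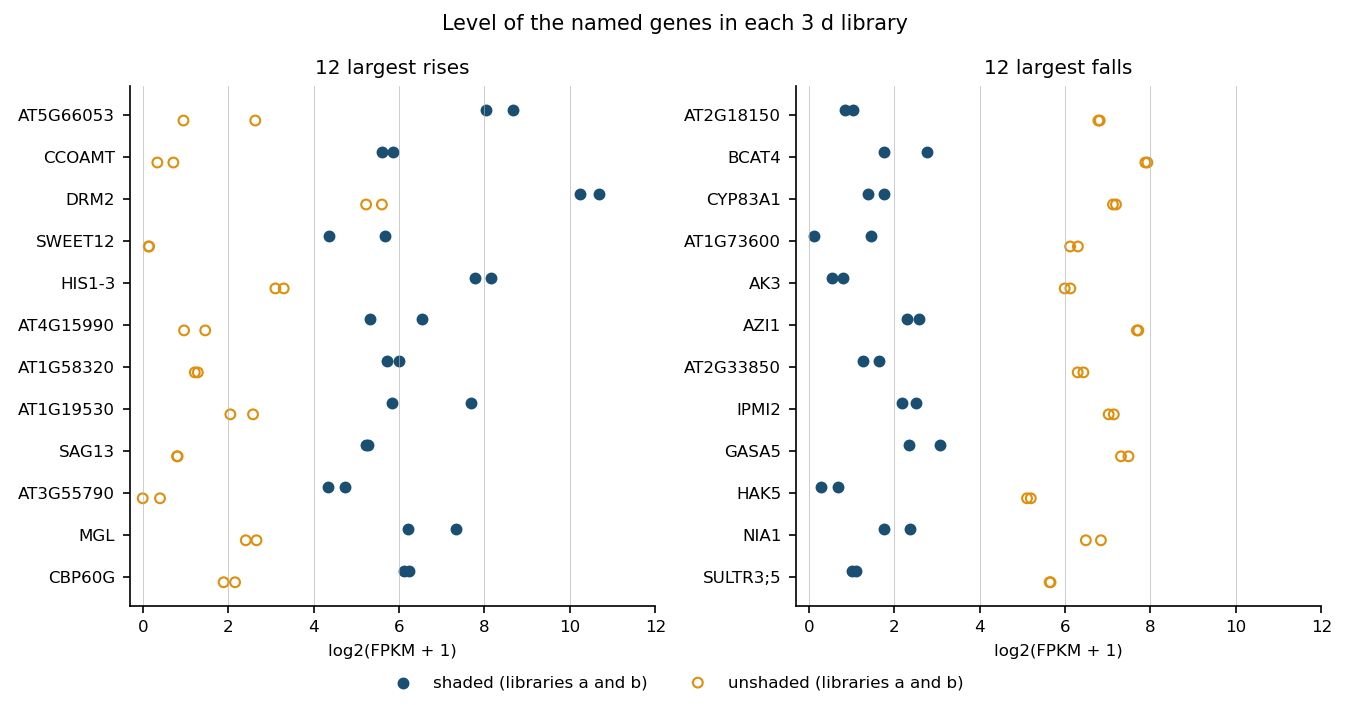
Level in each of the 4 libraries at 3 d (x axis, log2 of FPKM + 1) for the 12 largest rises and 12 largest falls named by rule, with shaded and unshaded libraries as separate symbols. In every row the 2 shaded libraries lie on 1 side of the 2 unshaded ones, which the rule for naming these genes required.

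The 250 bases before the annotated start of 5 of the genes described are printed to show where short motifs lie: 4 are among the 12 largest rises or 12 largest falls, and PRR7 is a clock gene. All 5 were picked knowing their values and motifs, so that 3 of them hold CACGTG shows nothing of how common it is. They were read from the RefSeq assembly TAIR10.1 on the strand of the gene, 5′ to 3′. Capitals mark matches to TATCCA, the letters of the sugar-repression motif known from cereal amylase promoters, or to CACGTG, the G-box that light- and clock-related factors bind. The windows are DRM2 at chr2:14310609-14310858 (minus strand), MGL at chr1:24028580-24028829 (plus strand), PRR7 at chr5:642031-642280 (minus strand), CYP83A1 at chr4:7992430-7992679 (minus strand) and BCAT4 at chr3:6849583-6849832 (minus strand).
DRM2: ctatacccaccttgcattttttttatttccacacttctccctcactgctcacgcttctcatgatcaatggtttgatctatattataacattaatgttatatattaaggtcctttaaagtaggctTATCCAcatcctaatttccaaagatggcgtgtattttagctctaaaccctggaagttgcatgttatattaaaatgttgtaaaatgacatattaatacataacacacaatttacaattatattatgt
MGL: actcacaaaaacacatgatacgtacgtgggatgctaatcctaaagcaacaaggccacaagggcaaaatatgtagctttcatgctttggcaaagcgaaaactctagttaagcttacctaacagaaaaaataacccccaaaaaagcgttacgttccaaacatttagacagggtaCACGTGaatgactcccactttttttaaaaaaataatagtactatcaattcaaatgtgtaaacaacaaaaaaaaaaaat
PRR7: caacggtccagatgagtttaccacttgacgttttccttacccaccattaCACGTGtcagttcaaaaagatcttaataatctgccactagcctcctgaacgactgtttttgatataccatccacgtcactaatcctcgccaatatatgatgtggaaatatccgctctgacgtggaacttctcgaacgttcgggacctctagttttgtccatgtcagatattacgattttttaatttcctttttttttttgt
CYP83A1: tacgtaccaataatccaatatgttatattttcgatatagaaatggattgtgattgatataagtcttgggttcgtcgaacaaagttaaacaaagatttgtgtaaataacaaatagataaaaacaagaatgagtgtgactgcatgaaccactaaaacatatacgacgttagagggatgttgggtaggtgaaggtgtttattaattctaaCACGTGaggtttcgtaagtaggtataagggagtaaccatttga
BCAT4: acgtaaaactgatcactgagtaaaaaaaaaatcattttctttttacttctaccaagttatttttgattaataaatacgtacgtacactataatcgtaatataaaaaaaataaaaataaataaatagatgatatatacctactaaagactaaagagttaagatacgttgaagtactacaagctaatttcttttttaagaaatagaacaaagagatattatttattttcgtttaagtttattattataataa
DRM2 has TATCCA 126 bases before its start. CACGTG begins 78 bases before the start in MGL, 201 in PRR7 and 43 in CYP83A1, and BCAT4 has none of the motifs searched. Both strands were searched in windows of 250 bases. Among all 27425 protein-coding genes, 13.6% of such windows hold TATCCA, 6.49% hold CACGTG, 12.2% hold the W-box letters TTGACC and 6.56% hold AACCCTA, known from growth-related promoters. TATCCA was present in 4 of the 12 largest rises (33.3%), in 2 of the 12 largest falls (16.7%) and in 6 of the 19 dark-inducible genes tested (31.6%). It was also present in 8 of 29 cell division genes (27.6%), all of which fell, in 13 of 48 WRKY genes (27.1%) and in 5 of 21 ribosome genes (23.8%). Among 10 aliphatic core genes 2 held it (20.0%), among 20 clock genes 3 (15.0%) and among 10 chain elongation genes 0. CACGTG was present in 7 of 20 clock genes (35.0%), in 1 of the 12 largest rises and in 1 of the 12 largest falls. A match describes letters in a window and says nothing of a factor bound there.

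Dark-inducible and sugar-starvation genes were nearly all higher in shaded roots. Of 20 genes listed, 19 were tested, and 18 of these rose, 16 by at least 2-fold. The median log2 fold change of the list was 2.19, against -0.01 over all genes tested. Genes of this list are switched on when carbohydrate runs short, and several were found in leaves kept in the dark. DRM1 (AT1G28330, dormancy-associated) had 594 and 706 FPKM in shaded and 54.5 and 76.3 FPKM in unshaded roots, a log2 fold change of 3.31 ± 0.19. TPS8 and TPS11, class II trehalose-6-phosphate synthase-like genes, had log2 fold changes of 2.80 ± 0.13 and 2.53 ± 0.15. BZIP1, a transcription factor of the energy-starvation pathway under the SnRK1 kinase, had 34.8 and 49.2 FPKM in shaded roots, against 3.27 and 5.1 in unshaded roots (log2 fold change 3.05 ± 0.21). DIN2, a beta-glucosidase, had 15.3 and 74.3 FPKM in shaded and 1.65 and 3.41 FPKM in unshaded roots (log2 fold change 3.36 ± 0.50, limma adjusted p = 3.92e-05). DIN10, a raffinose synthase, was less changed, with 219 and 340 FPKM in shaded and 73.5 and 82.8 FPKM in unshaded roots (log2 fold change 1.8 ± 0.15).

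ASN1, the dark-induced asparagine synthetase, was the 1 tested gene of this list that was not called. Its values overlapped, at 7.95 and 28.6 FPKM in shaded and 11.1 and 15.2 FPKM in unshaded roots (log2 fold change 0.22 ± 0.46, limma adjusted p = 0.704). The shaded replicates differed along this list. All 19 tested genes were higher in shaded library b than in shaded library a, by a median of 0.52 on the log2 scale. In unshaded roots, 16 of them were higher in library b, by a median of 0.28. In a split chosen after seeing the data, the list's median log2 fold change was 1.5 with shaded library a alone and 2.71 with shaded library b alone. With library a alone, 18 of 19 genes lay above both unshaded libraries, and with library b alone all 19 did.

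**Figure D3:**
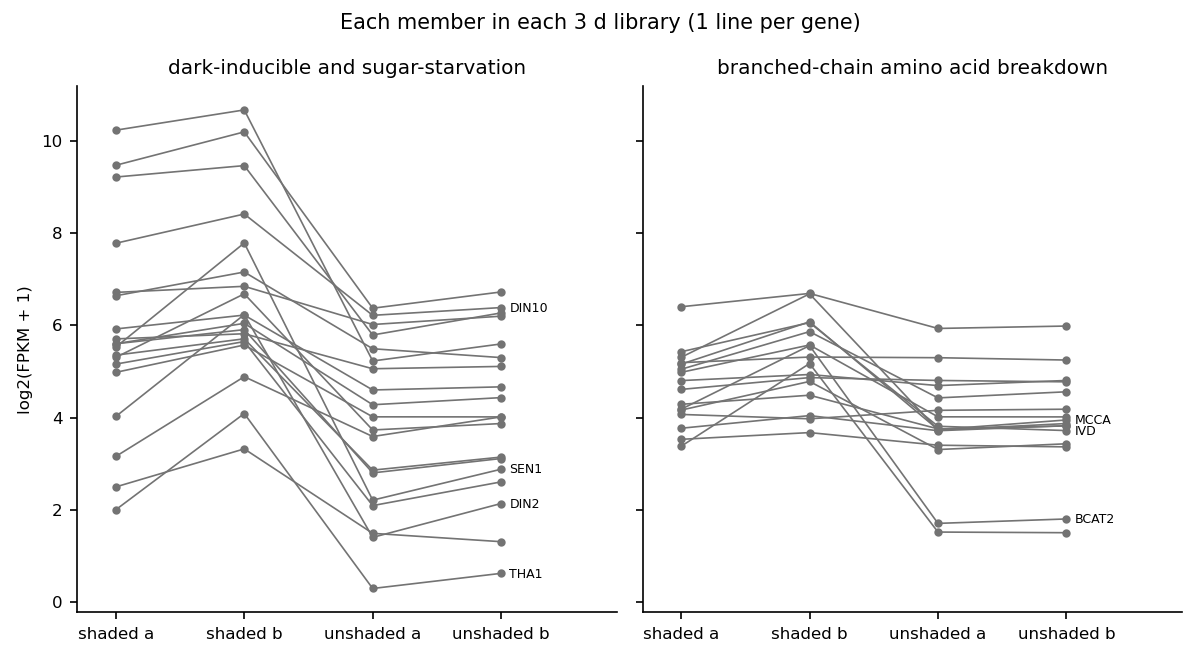
Level of each gene at 3 d (y axis, log2 of FPKM + 1) in the 2 shaded and 2 unshaded libraries (x axis), 1 line per gene, for the 19 tested dark-inducible and sugar-starvation genes and the 16 tested genes of branched-chain amino acid breakdown. Shaded library b lies above shaded library a for 19 of 19 and for 15 of 16 genes.

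Branched-chain amino acids are a fuel that carbon-starved plant cells are known to burn in mitochondria. Of 16 tested genes of leucine, isoleucine and valine breakdown, 10 rose and 1 fell, with 7 of the rises at least 2-fold and a median log2 fold change of 0.78. BCAT2, the mitochondrial aminotransferase that opens the pathway, had 17.2 and 46.3 FPKM in shaded and 2.27 and 2.5 FPKM in unshaded roots (log2 fold change 3.12 ± 0.30, limma adjusted p = 4.92e-07). AT1G21400, a subunit of the branched-chain keto acid dehydrogenase, had a log2 fold change of 2.76 ± 0.38. The later steps IVD (isovaleryl-CoA dehydrogenase) and MCCA (methylcrotonyl-CoA carboxylase) had log2 fold changes of 1.98 ± 0.14 and 1.77 ± 0.19. DIN4, the E1 beta subunit of the branched-chain keto acid dehydrogenase, and ETFQO, which passes electrons from the pathway to ubiquinone, had log2 fold changes of 1.26 and 0.60. In shaded roots, 15 of the 16 genes were again higher in library b. The median of the list was 0.53 with shaded library a alone and 1.05 with shaded library b alone. THA1, a threonine aldolase, had 3.02 and 16 FPKM in shaded roots, against 0.23 and 0.544 in unshaded roots (log2 fold change 2.59 ± 0.43).

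Nitrogen remobilization genes split, with 9 higher and 5 lower of 16 tested. The glutamate dehydrogenase GDH2 had 586 and 706 FPKM in shaded and 423 and 423 FPKM in unshaded roots (log2 fold change 0.60 ± 0.08), whereas the root glutamine synthetase GLN1;2 had 1641 and 1632 FPKM in shaded and 3350 and 3420 FPKM in unshaded roots (log2 fold change -1.05 ± 0.18). LKR/SDH, which breaks down lysine, and ERD5, the proline dehydrogenase, rose by 1.26 and 1.16 on the log2 scale, and P5CDH, the next enzyme of proline breakdown, had a log2 fold change of -0.64. All 18 autophagy genes listed were tested, and 14 rose, with a median log2 fold change of 0.32 over the list. ATG8e, which encodes a ubiquitin-like protein of the autophagosome membrane, was the only one of them to change at least 2-fold, at 205 and 234 FPKM in shaded and 94.5 and 96.0 FPKM in unshaded roots (log2 fold change 1.19 ± 0.09). ATG8f, the kinase gene AT2G37840 and the autophagy receptor NBR1 had log2 fold changes of 0.72, 0.81 and 0.42. Of 9 fatty acid breakdown genes, 6 rose and 2 fell. The acyl-CoA oxidase ACX4, one of the rises, had 145 and 196 FPKM in shaded and 81.5 and 82.1 FPKM in unshaded roots (log2 fold change 1.04 ± 0.09). The lipase SDP1, the thiolase KAT2 and the oxidase ACX1 had log2 fold changes of 0.78, 0.47 and 0.25.

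Sugar transport and sucrose cleavage genes were mostly higher, with 11 rises and 5 falls among 18 tested and 5 of the rises at least 2-fold. SWEET2, a vacuolar sugar carrier that is known to limit sugar loss from roots, had 46.3 and 67.5 FPKM in shaded and 11.0 and 11.2 FPKM in unshaded roots (log2 fold change 2.23 ± 0.17). STP1, a hexose uptake carrier, had a log2 fold change of 1.34 ± 0.14, and SUC2, the sucrose carrier of phloem companion cells, one of 1.08 ± 0.08. SWEET16, a further vacuolar sugar carrier, had a log2 fold change of 1.24 ± 0.09. The cell wall invertase gene ATBFRUCT1 had 237 and 233 FPKM in shaded roots, against 128 and 137 in unshaded roots, and was not called. It was listed at 0 in 2 libraries of other times, whose spread enters the fit.

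Aliphatic glucosinolate genes were lower throughout, and their lists were chosen knowing that such genes had fallen in these libraries. All 10 tested genes of methionine chain elongation fell, 8 of them at least 2-fold, with a median log2 fold change of -3.82. All 10 tested genes of the aliphatic core pathway fell as well, 8 of them at least 2-fold, with a median of -3.02. MYB28, the main transcriptional activator of the pathway, had 6.07 and 5.89 FPKM in shaded and 44.2 and 41.8 FPKM in unshaded roots (log2 fold change -2.66 ± 0.10, limma adjusted p = 1.07e-10). Of the chain elongation enzymes, the synthase MAM1 had 1.31 and 2.14 FPKM in shaded and 51.4 and 53.2 FPKM in unshaded roots (log2 fold change -4.31 ± 0.16). The dehydrogenase IMD1 had 16.7 and 16.8 FPKM in shaded and 334 and 322 FPKM in unshaded roots (log2 fold change -4.21 ± 0.13), with AT5G14210 on the other strand. MAM3, a second synthase, and IPMI1, an isomerase subunit, had log2 fold changes of -3.42 and -4.26. In the core pathway, CYP79F2, which makes aldoximes from elongated methionine and is a close copy of its neighbour CYP79F1, had a log2 fold change of -4.58 ± 0.15. GSTU20, a glutathione transferase, had 12.9 and 11.9 FPKM in shaded and 270 and 253 FPKM in unshaded roots (log2 fold change -4.29 ± 0.13). AT2G31790, a glucosyltransferase gene, had a log2 fold change of -3.38.

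The falls were smaller in genes that serve other pathways too. BCAT3, an aminotransferase shared with leucine synthesis, had 40.8 and 40.5 FPKM in shaded and 79.2 and 77.3 FPKM in unshaded roots (log2 fold change -0.93 ± 0.06). IMD3 of leucine synthesis had a log2 fold change of -0.41. SUR1 and GGP1, which serve aliphatic and indolic glucosinolates alike, had log2 fold changes of -0.96 ± 0.07 and -0.59. In aspartate-family amino acid synthesis, which makes methionine, 7 of 9 tested genes fell, and the log2 fold changes of all 9 were below 0. CGS1, the first committed enzyme of methionine synthesis, had 173 and 162 FPKM in shaded and 331 and 323 FPKM in unshaded roots (log2 fold change -0.96 ± 0.06). AK-HSDH I, which joins aspartate kinase to homoserine dehydrogenase, and the aspartate kinase CARAB-AK-LYS had log2 fold changes of -1.38 and -0.36.

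Indolic glucosinolate and camalexin genes, which start from tryptophan, moved in both directions, with 5 rises and 6 falls among 16 tested and a median log2 fold change of 0.05. The 5 rises were all at least 2-fold. CYP81F2, which modifies indolic glucosinolates in defence, had 78.1 and 67.3 FPKM in shaded and 10.5 and 7.55 FPKM in unshaded roots (log2 fold change 2.89 ± 0.41, limma adjusted p = 2.63e-05). CYP71A12, a cytochrome P450 of the camalexin branch, had 268 and 197 FPKM in shaded roots, against 44.3 and 37.1 in unshaded roots (log2 fold change 2.47 ± 0.55). Their defence-related activator MYB51 had 19.2 and 18.1 FPKM in shaded roots, against 3.44 and 3.04 in unshaded roots (log2 fold change 2.21 ± 0.29). CYP79B3, which makes the shared aldoxime, had 290 and 203 FPKM in shaded roots, against 114 and 119 in unshaded roots (log2 fold change 1.05 ± 0.17). The largest of the 6 falls was that of CYP81F1, a relative of CYP81F2, with 5.17 and 4 FPKM in shaded roots, against 17.7 and 12.6 in unshaded roots (log2 fold change -1.52 ± 0.14, limma adjusted p = 4.9e-07). MYB34, a further activator of indolic glucosinolate genes, and the glutathione transferase GSTF9 also fell, with log2 fold changes of -0.63 ± 0.14 and -0.55 ± 0.09. Salicylic acid defence genes rose in 6 and fell in 2 of 10 tested. FMO1, which makes N-hydroxypipecolic acid, had a log2 fold change of 1.52 ± 0.23. The salicylic acid receptor NPR1 had one of 0.33 and the salicylate-synthesis enzyme ICS1 one of -0.45 ± 0.12. Of the 15 genes listed, PR1, PR2 and PR5 were not tested and were listed at 0 in all 4 libraries. SARD1 and NIMIN1 did not pass the filter either, at 0.131 to 0.169 and 0.185 to 1.49 FPKM.

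Nitrate and sulfate genes were mostly lower. Of 17 tested nitrate and ammonium genes, 10 fell and 3 rose, and 9 of the falls were at least 2-fold, with a median log2 fold change of -1.15. The uptake carrier and nitrate sensor NRT1.1 had 172 and 178 FPKM in shaded and 448 and 382 FPKM in unshaded roots (log2 fold change -1.24 ± 0.15). NIA2, the second nitrate reductase, had 66.8 and 63.6 FPKM in shaded and 269 and 245 FPKM in unshaded roots (log2 fold change -1.96 ± 0.07, limma adjusted p = 7.19e-11). NIR1, nitrite reductase, had 64.3 and 65.1 FPKM in shaded roots, against 325 and 283 in unshaded roots (log2 fold change -2.21 ± 0.09). Each step of nitrate reduction was thus lower, as was UPM1, which makes the sirohaem that nitrite reductase needs (log2 fold change -1.87 ± 0.10), and RFNR2, which supplies electrons for nitrite reduction in roots (log2 fold change -2.32). NRT1.5, which loads nitrate into the xylem, went the other way, with 1216 and 1336 FPKM in shaded and 290 and 328 FPKM in unshaded roots (log2 fold change 2.04 ± 0.13, limma adjusted p = 8.9e-09). The ammonium transporter AMT1;1 also rose, with 198 and 199 FPKM in shaded and 97.1 and 102 FPKM in unshaded roots (log2 fold change 0.98 ± 0.13).

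Of 17 tested genes of sulfate uptake and sulfur deficiency, 12 fell and 1 rose, with a median log2 fold change of -0.81. SULTR2;1, which works with SULTR3;5 in moving sulfate to the shoot, had 2.51 and 1.67 FPKM in shaded and 37.4 and 34.7 FPKM in unshaded roots (log2 fold change -3.60 ± 0.21). APR1, which reduces activated sulfate, had 39.1 and 30.6 FPKM in shaded roots, against 146 and 144 in unshaded roots (log2 fold change -2.04 ± 0.15). LSU2, a marker of low sulfur, had a log2 fold change of -2.33 ± 0.17, and SIR, sulfite reductase, one of -0.91. Phosphate starvation genes gave 3 rises and 4 falls among 15 tested, and PHO1, which exports phosphate to the xylem, had 333 and 337 FPKM in shaded and 124 and 128 FPKM in unshaded roots (log2 fold change 1.4). PHO2, which limits phosphate uptake, had a log2 fold change of 0.72, and the pyrophosphatase PS2 and the phosphate transporter PHT1;4 had log2 fold changes of -0.65 and -0.96.

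Iron acquisition genes were measured for all 25 listed members, and 12 fell and 7 rose, with a median log2 fold change of -0.56. The uptake system itself was lower. IRT1, the iron transporter of the epidermis, had 223 and 137 FPKM in shaded and 418 and 577 FPKM in unshaded roots (log2 fold change -1.48 ± 0.34, limma adjusted p = 0.00175). FRO2, the ferric reductase beside it, had 49.7 and 29.9 FPKM in shaded roots, against 107 and 156 in unshaded roots (log2 fold change -1.71 ± 0.38). NAS2, a nicotianamine synthase that makes a metal chelator, had 10.3 and 9.51 FPKM in shaded roots, against 112 and 135 in unshaded roots (log2 fold change -3.51 ± 0.35). BHLH101, a transcription factor induced by low iron, moved against them, with 14.7 and 12.6 FPKM in shaded roots and 3.38 and 3.39 FPKM in unshaded roots (log2 fold change 1.74 ± 0.11). NAS1, a second nicotianamine synthase, and MYB10, a transcription factor of the iron response, had log2 fold changes of -2.24 and -1.58. The replicates of IRT1 and FRO2 spread widely in both groups, but the groups did not overlap. Over the whole list, 3 of 25 genes were higher in shaded library b than in shaded library a (median difference -0.23), and 19 of 25 were higher in unshaded library b than in unshaded library a (median difference 0.15). The part of that spread between replicates in the list's result was not tested.

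Genes of growth were lower by small amounts. All 29 cell division genes listed were tested and all 29 fell, with a median log2 fold change of -0.59. The largest fall was that of CYCD3;1, a D-type cyclin of the entry into the cell cycle, with 17.8 and 12.6 FPKM in shaded and 36.8 and 39.5 FPKM in unshaded roots (log2 fold change -1.29 ± 0.14). KNOLLE, the syntaxin of the cell plate, had 36.7 and 32.1 FPKM in shaded roots, against 58.4 and 59.5 in unshaded roots (log2 fold change -0.76 ± 0.07). PCNA1, the DNA replication clamp, had a log2 fold change of -0.59 ± 0.07. The 4 with the smallest adjusted p-values were the mitotic cyclins CYCB2;4 and CYCB2;2, the kinesin HIK of cytokinesis and the Aurora kinase AUR1, with log2 fold changes of -0.77, -0.71, -0.70 and -0.69. Of 21 genes of the cytosolic ribosome and nucleolus, 19 fell and 1 rose, with a median of -0.41. RPL5A was typical, at 633 and 630 FPKM in shaded and 860 and 845 FPKM in unshaded roots (log2 fold change -0.43 ± 0.06). RPL23AA, RPS6A and RPL24B, likewise ribosomal proteins, had log2 fold changes of -0.54, -0.47 and -0.44. RPL10C was the exception, at 667 and 668 FPKM in shaded and 590 and 604 FPKM in unshaded roots (log2 fold change 0.16).

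Root hair genes fell in 9 of 14 tested cases, with a median log2 fold change of -0.43. RSL2, a transcription factor of hair growth, had 4.45 and 5.40 FPKM in shaded and 15.2 and 9.94 FPKM in unshaded roots (log2 fold change -1.17 ± 0.17). RHD6, which acts earlier in the same cells, had 7.59 and 9.43 FPKM in shaded and 16.1 and 13 FPKM in unshaded roots (log2 fold change -0.71 ± 0.13). XTH14, a wall-modifying enzyme, had 22.7 and 28.3 FPKM in shaded roots, against 70.2 and 55.9 in unshaded roots (log2 fold change -1.27 ± 0.15), and RHD2, the NADPH oxidase of growing hairs, had a log2 fold change of -0.69. The replicates differed along this list too. All 14 genes were higher in shaded library b than in shaded library a (median difference 0.32), and 2 of 14 were higher in unshaded library b than in unshaded library a (median difference -0.25). The part of these shifts between replicates in the list's median was not tested. The endodermis, the barrier around the root's vascular tissue, is marked by Casparian strip and suberin genes. Of 24 tested genes of the Casparian strip and suberin, 13 rose and 1 fell, with a median of 0.27. CASP5, a membrane scaffold protein of the Casparian strip, had 24.5 and 34.5 FPKM in shaded and 2.59 and 2.78 FPKM in unshaded roots (log2 fold change 3.03 ± 0.19, with AT5G15300 on the other strand). CASP4, of the same family, and ABCG6, a suberin exporter, had log2 fold changes of 0.92 and 0.98. FAR1, a fatty acyl reductase of suberin, was the fall, at a log2 fold change of -1.60 ± 0.19.

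Aquaporins rose in 13 and fell in 4 of 18 tested cases, with a median log2 fold change of 0.61. TIP2;3, a channel of the vacuole membrane, had 335 and 412 FPKM in shaded and 46.7 and 43.6 FPKM in unshaded roots (log2 fold change 3.01 ± 0.12, limma adjusted p = 1.23e-10). Of the plasma membrane channels, PIP1;2 had 1229 and 1427 FPKM in shaded roots, against 553 and 555 in unshaded roots (log2 fold change 1.26 ± 0.08). PIP2;4 had 104 and 119.7 FPKM in shaded roots, against 48.9 and 46.7 in unshaded roots, and rose as well. PIP1;4 fell, with 73.1 and 71.6 FPKM in shaded roots, against 143 and 144 in unshaded roots (log2 fold change -0.98 ± 0.05). Of 8 tested low-oxygen genes, 1 rose and 4 fell, with the haemoglobin gene HB1 at 6.88 and 6.95 FPKM in shaded and 27.0 and 23.8 FPKM in unshaded roots (log2 fold change -1.74 ± 0.09). The oxygen-sensing oxidase PCO1 and the alcohol dehydrogenase ADH1 had log2 fold changes of -0.96 and -0.62, and the sucrose synthase SUS1 rose by 0.32.

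Light harvesting and chlorophyll genes, which work in chloroplasts, were present at low to moderate levels in these roots. Of 19 tested, 12 rose and 3 fell, with a median log2 fold change of 0.53. LHCB1.5, an antenna protein of photosystem II, had 95.1 and 97.7 FPKM in shaded and 20.4 and 17.8 FPKM in unshaded roots (log2 fold change 2.28 ± 0.11). LHCA4, an antenna protein of photosystem I, had 62.6 and 67.7 FPKM in shaded roots, against 18.1 and 20.0 in unshaded roots (log2 fold change 1.72 ± 0.08). LHCB3, of the photosystem II antenna, and CAO, which makes chlorophyll b, had log2 fold changes of 0.99 and 0.89. Members did not move together, since LHCB2.1 and the chlorophyll-synthesis regulator GUN4 fell by 1.02 ± 0.15 and 1.03 ± 0.13 on the log2 scale. Both were low. LHCB2.1 had 0.174 and 0.546 FPKM in shaded and 1.57 and 1.92 FPKM in unshaded roots. GUN4 had 0.829 and 1.24 FPKM in shaded and 3.21 and 3.09 FPKM in unshaded roots. At such levels the size of the fold change depends on the pseudocount. LHCB1 genes are close copies of each other, and how reads they share were divided is not given in the sources used here. The summed FPKM of the shoot markers, 124 and 123 in shaded libraries, against 69.0 and 76.4 in unshaded libraries, moved with the antenna genes that rose. Of the 15 shoot markers, 4 passed the filter.

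All 12 tested flavonoid synthesis genes fell, 8 of them at least 2-fold, with a median log2 fold change of -1.33. TT4, chalcone synthase, which opens the pathway, had 203 and 195 FPKM in shaded and 884 and 909 FPKM in unshaded roots (log2 fold change -2.17 ± 0.12). FLS1, flavonol synthase, had 60.1 and 54.8 FPKM in shaded roots, against 292 and 300 in unshaded roots (log2 fold change -2.35 ± 0.12). TT5, chalcone isomerase, and TT7, flavonoid 3'-hydroxylase, had log2 fold changes of -2.34 and -2.37. Light-signalling genes changed less, with 11 rises and 5 falls among 31 tested. HFR1, a bHLH factor induced by shade in shoots, had 10.1 and 12.6 FPKM in shaded and 3.83 and 4.17 FPKM in unshaded roots (log2 fold change 1.3 ± 0.09). HB-2 (AT4G16780), a homeobox gene widely used as a marker of low red to far-red light in shoots, was not called, at 13.6 and 13.1 FPKM in shaded and 11.5 and 12.1 FPKM in unshaded roots (log2 fold change 0.16 ± 0.12, limma adjusted p = 0.262). The B-box factors BBX24 and BBX21 and the blue light receptor CRY1 had log2 fold changes of 0.67, 0.62 and 0.57. The photoreceptor PHYB fell by 0.34 ± 0.05 on the log2 scale.

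Of 20 clock genes, all tested, 17 rose and 1 fell, with 6 rises of at least 2-fold and a median log2 fold change of 0.68. The plants were in constant light, and sampling hours are not given in the sources used here. The evening-phased TOC1 had 62.6 and 70.6 FPKM in shaded and 31.8 and 32.4 FPKM in unshaded roots (log2 fold change 1.03 ± 0.06). ELF3, of the evening complex, had 63.0 and 65.6 FPKM in shaded roots, against 30.9 and 32.1 in unshaded roots (log2 fold change 1.01 ± 0.04), and GI had a log2 fold change of 0.94. PRR7, a repressor of the morning genes, had 24.8 and 29.8 FPKM in shaded and 6.09 and 6.61 FPKM in unshaded roots (log2 fold change 1.94 ± 0.10, limma adjusted p = 1.71e-09). The morning gene LHY was the fall, with 4.23 and 4 FPKM in shaded and 16.9 and 17.0 FPKM in unshaded roots (log2 fold change -1.81 ± 0.18). Its partner CCA1 was not called, at 11.3 and 10.5 FPKM in shaded and 11.2 and 11.2 FPKM in unshaded roots (log2 fold change -0.04 ± 0.15, limma adjusted p = 0.85).

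Among transcription factors, 27 of 48 tested WRKY genes rose and 10 fell, with 8 rises and 2 falls of at least 2-fold and a median log2 fold change of 0.28. WRKY70, of salicylic acid signalling, had 34.4 and 32.5 FPKM in shaded and 3.53 and 3.8 FPKM in unshaded roots (log2 fold change 2.89 ± 0.23). WRKY45 had 37.3 and 43.3 FPKM in shaded roots, against 8.4 and 7.88 in unshaded roots (log2 fold change 2.17 ± 0.18). WRKY23, which acts in auxin-dependent root development, had a log2 fold change of -1.14 ± 0.11, WRKY74 one of -1.12 and WRKY31 one of 1.73.

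Hormone lists were mixed, and calls among 40.9% of ethylene and 51.4% of auxin genes were no more common than over all genes. Ethylene genes gave 7 rises and 2 falls among 22 tested, with the ACC oxidase AT1G12010 at 23.9 and 37.5 FPKM in shaded and 9.56 and 10.2 FPKM in unshaded roots (log2 fold change 1.51 ± 0.19). The ethylene-signalling factor EIN3 and kinase CTR1 had log2 fold changes of 0.48 and 0.23, and the ACC synthase ACS2 one of -0.78. Auxin genes gave 11 rises and 7 falls among 35 tested. The efflux carrier PIN7 had 25.5 and 25.6 FPKM in shaded roots, against 47.3 and 48.2 in unshaded roots (log2 fold change -0.88 ± 0.07), and the influx carrier LAX1 had a log2 fold change of 1.39 ± 0.13. The auxin-response repressors IAA3 and IAA13 had log2 fold changes of 0.94 and 0.60. Jasmonate genes gave 8 rises and 1 fall among 14 tested. VSP2, a jasmonate-induced storage protein gene, was that fall, with 2.46 and 1.54 FPKM in shaded and 23.2 and 31.5 FPKM in unshaded roots (log2 fold change -3.24 ± 0.22), whereas the jasmonate repressors JAZ9 and JAZ6 and the transcription factor MYC2 had log2 fold changes of 1.29, 0.98 and 0.41. Gibberellin genes gave 6 rises and 6 falls among 15 tested. GA20OX2, which makes gibberellin precursors, had 9.49 and 10.4 FPKM in shaded roots, against 1.17 and 1.2 in unshaded roots (log2 fold change 2.32 ± 0.15), whereas GA3OX2 of the final activating step had a log2 fold change of -1.37 ± 0.13. The DELLA repressor RGA and the receptor GID1C had log2 fold changes of 0.46 and 0.56. Counts of rises and falls were 6 and 2 of 8 for type-A cytokinin response regulators, 5 and 1 of 7 for abscisic acid and 4 and 3 of 9 for brassinosteroids. The response regulators ARR5, ARR6 and ARR7 had log2 fold changes of 0.81, 0.58 and 0.56, and ARR3 one of -1.17. For abscisic acid, CYP707A1 of its breakdown, NCED3 of its synthesis and the phosphatase ABI1 had log2 fold changes of 1.04, 1.00 and 0.53, and the stress gene RD29A one of -1.33. For brassinosteroid synthesis, CPD and DET2 had log2 fold changes of 0.73 and 0.60, and DWF4 and ROT3 had ones of -0.98 and -0.40.

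**Figure D4:**
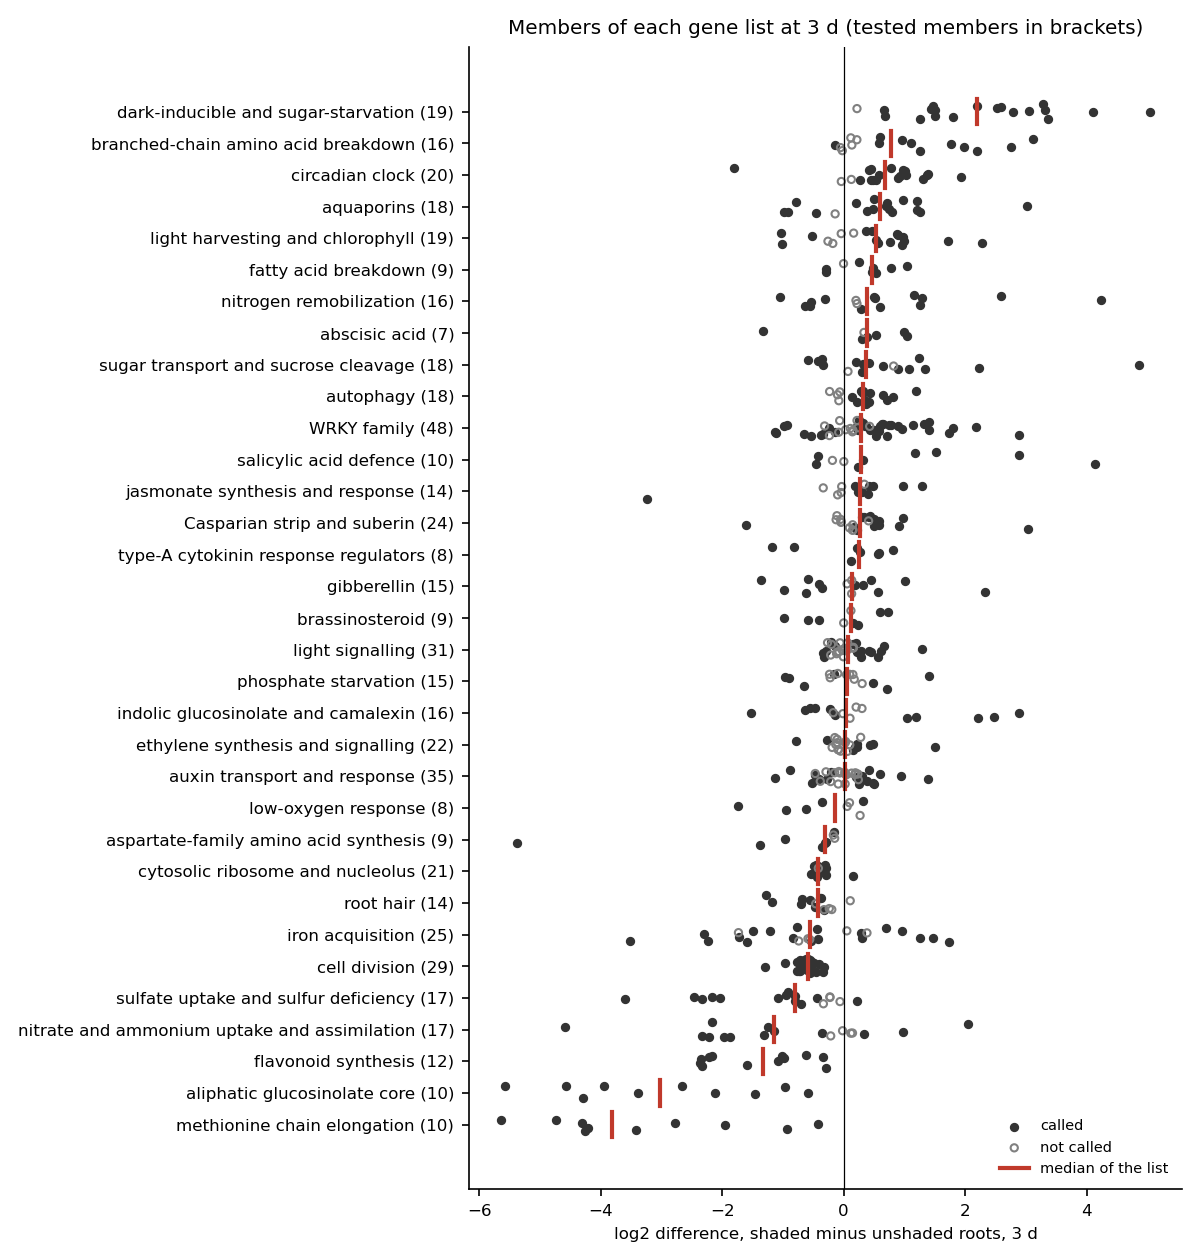
Log2 fold changes of shaded over unshaded roots at 3 d (x axis) for the tested members of each gene list (rows), 1 point per gene, filled where called, with the median of the list as a bar. The aliphatic glucosinolate lists lie furthest to the left, with medians of -3.82 and -3.02, and the dark-inducible list furthest to the right, with a median of 2.19.

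The response at 3 d was then set against the responses at 1 d and at 5 d. By the same threshold, 50.9% of genes were called at 1 d and 55.9% at 5 d, and 5.96% and 7.08% with a change of at least 2-fold. Of the genes at least 2-fold changed at 3 d, 928 were changed by at least 2-fold in the same direction at 1 d, which is 58.3% of the list at 3 d and 79.6% of that at 1 d. With 5 d the shared genes numbered 990, which is 62.2% of the list at 3 d and 71.5% of that at 5 d. Opposite directions were called for 90 genes between 3 d and 1 d and for 84 genes between 3 d and 5 d.

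The size of the effect itself differed between 3 d and 1 d for 974 genes (4.98%), with 364 higher (1.86%) and 610 lower (3.12%) at 3 d. Higher effects were 37.4% of these calls, and 51.8% with median-of-ratios scaling. It differed between 3 d and 5 d for 1049 genes (5.36%), with 694 higher (3.55%) and 355 lower (1.82%) at 3 d, or 66.2% higher effects, and 45.5% with median-of-ratios scaling. These comparisons share the 3 d libraries, so their lists are not independent. The balance of directions therefore depends on scaling, and the values below are given per library. Leaving out single libraries gave 376 to 748 genes in the comparison with 1 d, the fewest without unshaded library a of 3 d, and 419 to 1153 in that with 5 d, the fewest without shaded library b of 3 d. With the replicate block within time points the counts were 333 and 332, and with only the groups compared that against 5 d was 210. In shaded roots alone, 3175 genes (16.2%) differed between 3 d and 1 d, and in unshaded roots alone 1351 genes (6.91%) did. With only the groups compared these became 47 and 860, which turns their order round, and with the block 445 and 194, so no order between them is read here.

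Some effects grew after 1 d along with a change in the unshaded level. HAK5 had 0.606 and 0.229 FPKM at 3 d and 0.399 and 0.569 FPKM at 1 d in shaded roots. In unshaded roots it had 35.7 and 33.6 FPKM at 3 d, against 0.945 and 1.18 at 1 d. The effect was lower at 3 d by -4.19 ± 0.29 (limma adjusted p = 2e-06), and the unshaded level changed by 4.11 (limma adjusted p = 4.73e-08), while the change of -0.08 in shaded roots was not called (limma adjusted p = 0.842). AGL19, a MADS-box gene of roots, had 9.37 and 11.9 FPKM at 3 d and 0.405 and 0.742 FPKM at 1 d in unshaded roots, and stayed between 0.402 and 0.794 FPKM in the shaded libraries of both times. Its effect differed by -3.07 ± 0.32 (limma adjusted p = 0.00013). NIA1 went the same way. Its unshaded level was 114 and 88.8 FPKM at 3 d, against 17.5 and 14.1 at 1 d. Its shaded level was 4.2 and 2.39 FPKM at 3 d, against 3.52 and 3.43 at 1 d. The effect differed by -2.69 ± 0.27 (limma adjusted p = 0.00012). At 5 d the unshaded levels were 73.7 and 77.7 FPKM for HAK5, 20.8 and 13.9 for AGL19 and 277 and 226 for NIA1. Shaded levels at 5 d were 0.756 and 0.471, 1.00 and 0.701, and 4.80 and 4.51 FPKM in that order. For 7 of the 17 nitrate and ammonium genes tested, the effect was called more negative at 3 d than at 1 d, against 3.12% of all genes tested.

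Other effects moved with the shaded level. SWEET12 had 19.4 and 50.2 FPKM in shaded roots at 3 d, against 3.26 and 4.78 at 1 d and 4.79 and 4.69 at 5 d. Its effect at 3 d exceeded that at 1 d by 2.59 ± 0.51 (limma adjusted p = 0.01) and that at 5 d by 3.48 ± 0.51 (limma adjusted p = 0.002). Neither difference passed the threshold when only the groups compared were fitted. EXPB3, a beta-expansin that loosens cell walls, had 135 and 88.9 FPKM in shaded roots at 3 d, against 31.7 and 29.2 at 1 d, while unshaded roots held 301 and 326 FPKM at 3 d and 295 and 327 at 1 d. The effect differed by 1.8 ± 0.28 (limma adjusted p = 0.0022). CYP735A2, which makes trans-zeatin cytokinins, was called in opposite directions at 1 d and 5 d and not at 3 d, with log2 fold changes of -1.54 at 1 d, 0.28 at 3 d (limma adjusted p = 0.149) and 1.61 at 5 d. In shaded roots it had 25.8 and 22.3 FPKM at 3 d, against 10.3 and 7.49 at 1 d, and in unshaded roots 18.5 and 20.6 FPKM at 3 d, against 25.5 and 29.8 at 1 d.

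Carbon-starvation and chloroplast genes set 3 d apart from 5 d. The median log2 fold change of the dark-inducible list was 1.64 at 1 d, then 2.19 at 3 d, then 0.97 at 5 d. For 6 of its 19 tested genes the effect was called higher at 3 d than at 5 d, against 3.55% of all genes tested. For 0 of the 19 a difference between 3 d and 1 d was called, against 4.98% of all genes tested. SEN1, a dark- and senescence-induced gene, had 45.3 and 220 FPKM in shaded roots at 3 d, against 13.7 and 12.8 at 5 d, and in unshaded roots 3.64 and 6.38 FPKM at 3 d, against 10.3 and 10.4 at 5 d. Its effect differed by 3.78 ± 0.64 (limma adjusted p = 0.0042), which did not pass the threshold when only the groups compared were fitted. ASN1, not called at 3 d, had a log2 fold change of -4.24 at 5 d, and the difference of 4.46 ± 0.65 was called (limma adjusted p = 0.0018). The branched-chain list had medians of 0.55 at 1 d, 0.78 at 3 d and 0.13 at 5 d. In it, 7 of 16 tested genes were called higher at 3 d than at 5 d, and 0 were called different between 3 d and 1 d. The shares over all genes were again 3.55% and 4.98%. Both lists were higher in shaded library b than in library a at 3 d, as given above, and the part of that library in these differences was not tested.

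The light harvesting list had medians of 0.57 at 1 d, then 0.53 at 3 d, then -0.45 at 5 d. Of its 19 genes, 14 were called higher at 3 d than at 5 d, against 3.55% of all genes tested. The 4 shoot markers tested moved with it, with medians of 0.40, 0.40 and -0.07 on those days and 2 of the 4 called higher at 3 d than at 5 d, and their part in this difference was not tested. LHCB1.3, an antenna protein of photosystem II, had log2 fold changes of 2.44 at 1 d, 0.96 at 3 d and -2.25 at 5 d. In shaded roots it had 19.9 and 24.2 FPKM at 3 d, against 10.7 and 13.6 at 5 d, and in unshaded roots 10.03 and 11.5 FPKM at 3 d, against 69.2 and 54.0 at 5 d. Both unshaded values were higher and both shaded values lower at 5 d than at 3 d, and the effect differed by 3.21 ± 0.25 (limma adjusted p = 1.1e-05). Cell division genes had a median log2 fold change of -0.36 at 1 d, then -0.59 at 3 d, then -0.76 at 5 d. In the methionine chain elongation list the medians lay closer together, at -3.52, -3.82 and -3.94 on those days.

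For 31 genes (0.159%) the effect at 3 d was called above those at both 1 d and 5 d, and for 20 genes (0.102%) below both. The 20 include ATCG00620, which was listed at 0 in all 4 libraries of 3 d and in 20 of the 24 Arabidopsis libraries, and so showed no effect at 3 d itself. Beside SWEET12, the first group held PRR7, whose effect was higher by 0.59 ± 0.14 than at 1 d (limma adjusted p = 0.029). It also held BGAL7, a beta-galactosidase gene chosen here after its values were seen, and ICL, isocitrate lyase of the glyoxylate cycle. ICL was low throughout, at 2.46 and 3.00 FPKM in shaded and 1.51 and 1.84 FPKM in unshaded roots at 3 d. In shaded roots it had 3.64 and 3.27 FPKM at 1 d and 0.867 and 0.830 FPKM at 5 d. In unshaded roots it had 4.23 and 5.07 FPKM at 1 d and 3.71 and 3.01 FPKM at 5 d. Its shaded level was thus not highest at 3 d, and its unshaded level was lower at 3 d than at 1 d or 5 d. The second group held AZI1, RSL2 and CWLP, a cell wall-plasma membrane linker protein gene. CWLP had 0.939 and 1.11 FPKM in shaded roots at 3 d, against 42.2 and 41.5 in unshaded roots. It overlaps AT3G22121 on the other strand, which is in the same group. VSP2, in neither group, fell at 3 d but was not called at 1 d (log2 fold change -0.42, limma adjusted p = 0.12). The difference between these times was -2.82 ± 0.31 (limma adjusted p = 0.00019). VSP2 was also lower in shaded roots at 5 d, with 6.65 and 9.66 FPKM, against 119 and 93.5 in unshaded roots. At 1 d it had 0.064 and 0.061 FPKM in shaded roots, against 0.456 and 0.388 in unshaded roots. At such levels the pseudocount shrinks the fold change, so the size of the difference depends on it.

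**Figure D5:**
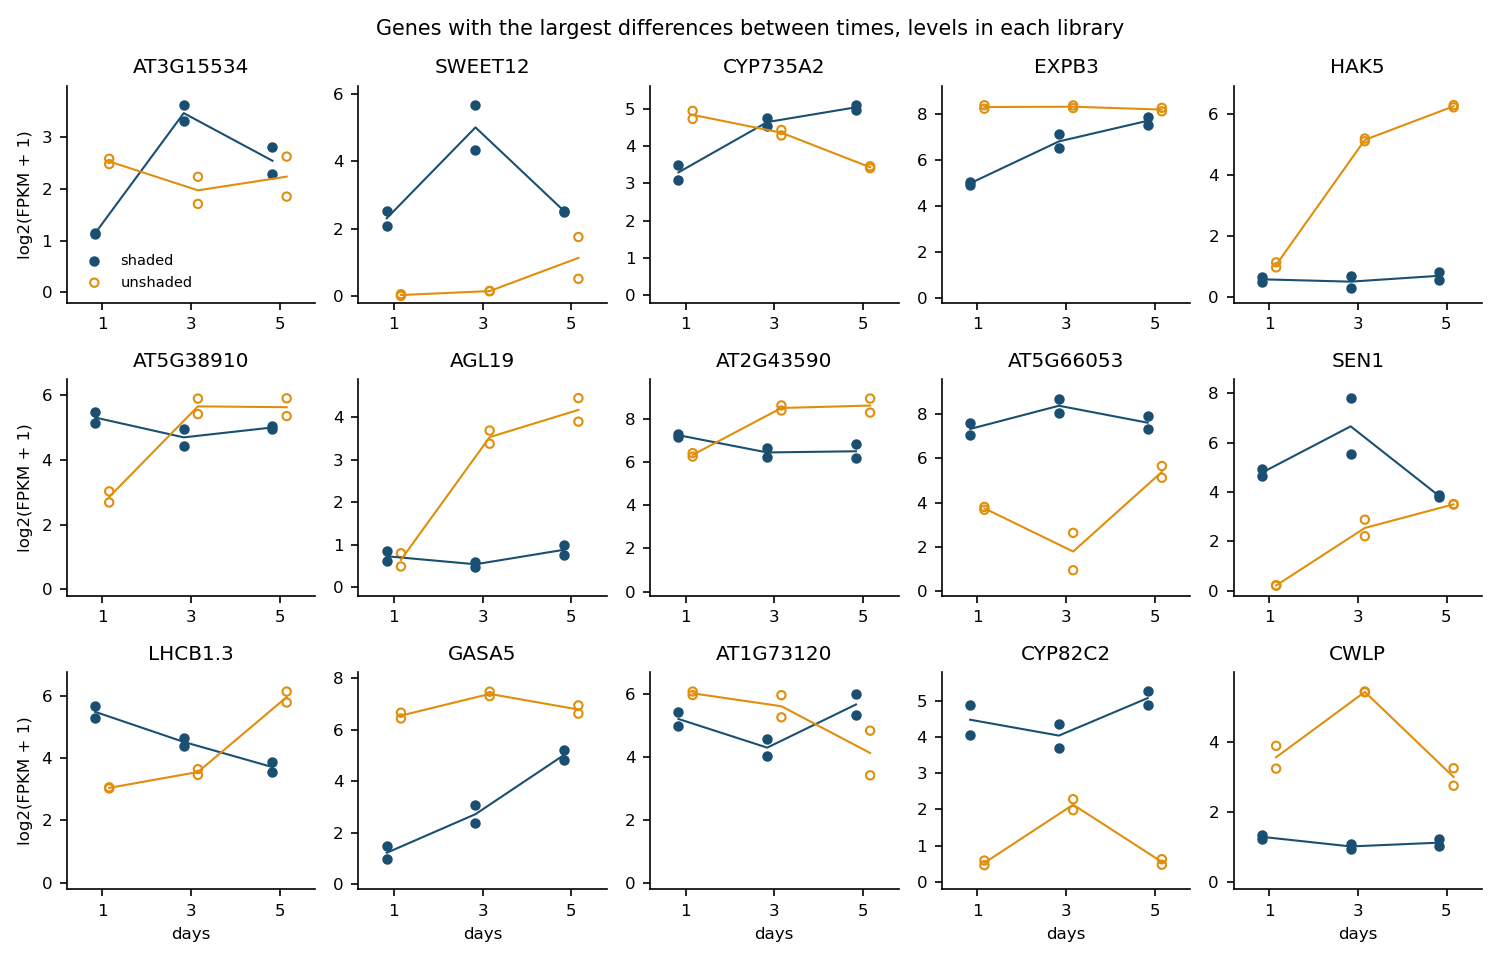
Level (y axis, log2 of FPKM + 1) at 1 d, 3 d and 5 d (x axis) in each shaded and unshaded library, with lines through the means, for 15 genes whose effect at 3 d differed from that at 1 d or at 5 d. HAK5 and AGL19 are higher at 3 d than at 1 d in unshaded roots and stay low in shaded roots, and SWEET12 is highest in shaded roots at 3 d.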

How the data were processed

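Arabidopsis roots were sequenced in 24 libraries, 2 for each of 12 groups of light and time. The authors deposited FPKM values, made with Cufflinks 2.1.1 on the build TAIR10 per the submitters' processing notes. RNA was extracted with trizol-chloroform, and libraries followed standard Illumina protocols, per the labels' protocols. The aligner, any filter and the use of strand are not given in the sources used here. Because FPKM divides by transcript length and library total, a large change in abundant genes shifts all others.

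Columns were matched to samples by title. Analysis used log2(FPKM + 1), not scaled further, of the genes whose FPKM averaged at least 1 over the 24 libraries. Fold changes are on that scale, which understates the change of low genes. limma 3.58.1 in R 4.3.3 was fitted to all 24 libraries with 1 mean per group (lmFit, contrasts.fit, eBayes with trend), so groups shared the estimate of the spread. A gene was called where its Benjamini-Hochberg adjusted p-value over the 19553 genes was under 0.05. Differences between effects and between times were contrasts of the same fit.

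The genes named are the 12 largest rises and 12 largest falls among called protein-coding genes whose groups did not overlap and whose higher group had at least 5 FPKM in both libraries, the 4 largest differences in each direction against 1 d and against 5 d by the same filters, and, from each of 35 gene lists, the 4 members with the smallest adjusted p-value and any member whose role is described. The members and lists were chosen with earlier results of these data known. RefSeq's TAIR10.1 annotation gave the names and holds 32810 of the 33557 identifiers, and promoters were read from that assembly. Relative depth came from ratios of low values, of which 86.2% lay within 0.01 (log2) of a ratio of whole numbers up to 4, against 0.136% off the step. Data were simulated for the comparison at 3 d, with 19553 genes. Of 100 genes changed by 1 on the log2 scale 94% were recovered, and of 100 changed by 0.5, 69% were. Of all calls, 4.12% were false. The simulated noise was drawn independently for each gene from the fitted spread, so shifts that many genes share within a library were not covered. Far fewer genes were changed in it than were called in the data. Alternatives were a pseudocount of 0.1, no filter, median-of-ratios scaling, equal FPKM sums, the replicate letter as a block, only the groups compared and leaving out each library. Plots were drawn with matplotlib 3.10.9 in Python 3.11.15 (pandas 2.3.3, numpy 2.4.6).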

Additional observations from a re-analysis of the deposited data

Results flagged for a closer look

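The effect of shade differed between times, in the limma test of the difference itself, for the genes with the largest such differences. All comparisons below use the 3 d libraries, so they are not independent of each other.

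Between 3 d and 1 d, the effect was higher at 3 d by 2.89 ± 0.55 for AT3G15534 (limma adjusted p = 0.0079), an uncharacterized gene with 8.91 and 11.4 FPKM in shaded roots and 3.72 and 2.28 FPKM in unshaded roots at 3 d. At 1 d it had 1.23 and 1.18 FPKM in shaded roots and 5.01 and 4.59 FPKM in unshaded roots, so that its groups changed order. It was also higher at 3 d for SWEET12 by 2.59, for CYP735A2 by 1.83 and for EXPB3 by 1.8. It was lower at 3 d for HAK5 by -4.19 and for AGL19 by -3.07, as described above.

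AT5G38910, a cupin family gene, differed by -3.41 ± 0.54 (limma adjusted p = 0.0025). It had 30.0 and 20.6 FPKM in shaded and 58.4 and 41.6 FPKM in unshaded roots at 3 d, and 34.4 and 43.3 FPKM in shaded and 5.42 and 7.15 FPKM in unshaded roots at 1 d. AT2G43590, a chitinase family gene, differed by -2.98 ± 0.35 (limma adjusted p = 0.00026). It had 102 and 74.3 FPKM in shaded and 398 and 338 FPKM in unshaded roots at 3 d, and 144 and 160 FPKM in shaded and 85.0 and 75.9 FPKM in unshaded roots at 1 d. Both genes were higher in shaded roots at 1 d. At 3 d AT2G43590 was lower in shaded roots, and for AT5G38910 the lower level only just passed the threshold (limma adjusted p = 0.0432) and did not pass it under 4 alternatives that keep every library (a pseudocount of 0.1, no filter, equal FPKM sums and the replicate block across time points) or without shaded 3 d library b or unshaded 3 d library a.

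Between 3 d and 5 d, the effect was higher at 3 d by 4.35 ± 1.09 for AT5G66053 (limma adjusted p = 0.032). Its unshaded level was 0.938 and 5.21 FPKM at 3 d and 49.0 and 33.6 FPKM at 5 d, and its shaded level 409 and 260 FPKM at 3 d and 157 and 235 FPKM at 5 d. The effect was also higher at 3 d for SEN1 by 3.78, for SWEET12 by 3.48 and for LHCB1.3 by 3.21. It was lower at 3 d by -2.92 for GASA5, whose shaded level was 7.44 and 4.12 FPKM at 3 d and 27.4 and 36.4 FPKM at 5 d. It was lower by -2.86 for AT1G73120, an F-box/RNI family gene with log2 fold changes of -1.32 at 3 d and 1.54 at 5 d. CYP82C2, a cytochrome P450 of tryptophan-derived defence compounds, differed by -2.61 ± 0.64, with an unshaded level of 2.94 and 3.85 FPKM at 3 d and 0.388 and 0.541 FPKM at 5 d. CWLP differed by -2.53 ± 0.36 (limma adjusted p = 0.0015), with an unshaded level of 42.2 and 41.5 FPKM at 3 d and 5.71 and 8.48 FPKM at 5 d. Its shaded level was 0.939 and 1.11 FPKM at 3 d and 1.35 and 1.02 FPKM at 5 d.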

How the results depend on the processing

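The count of genes called at 3 d, 11376, stayed between 9299 and 12087 under every alternative tried. Counts for differences were less stable. With the replicate block within time points they were 333 for 3 d against 1 d, 332 for 3 d against 5 d, 445 for shaded roots and 194 for unshaded roots between 3 d and 1 d, and with the replicate block across time points the count at 3 d was 11268. Deviations of same-lettered libraries at 3 d had a correlation of 0.0211. With 2 libraries per group, this value cannot show whether the letters a and b pair the samples. With only the groups compared, the counts were 210 for 3 d against 5 d, 47 for shaded roots (5105 at an unadjusted p-value under 0.05) and 860 for unshaded roots. Leaving out each library gave 9299 to 10024 for the effect at 3 d, 376 to 748 for 3 d against 1 d, 419 to 1153 for 3 d against 5 d, 1216 to 1802 for shaded roots and 398 to 687 for unshaded roots. The fewest were found without unshaded 3 d library a, shaded 3 d library b, shaded 1 d library a and unshaded 1 d library b for the last 4 of these. Other removals that moved a count by more than 1.5 times gave 386 to 627 for 3 d against 1 d (unshaded 3 d library b, shaded 1 d libraries a and b, unshaded 1 d library b) and 432 to 633 for 3 d against 5 d (unshaded 3 d libraries a and b, shaded 5 d library b, unshaded 5 d library a). In shaded and in unshaded roots alone, each of the 4 removals did so. A lone library was assumed to vary like those of the other groups. The cause of these shifts was not tested, beyond the fewer samples in each such fit.

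Among the genes and differences named by rank that were called, none reversed direction under the alternatives run. Genes not called were not checked for a change of direction, and members described outside those ranks, such as ASN1, were not run. Of the values of named genes under alternatives that keep every library, 1157 stayed on their side of the threshold and 5 no longer passed it, 4 of them for AT5G38910 and 1 for ARR7. In fits without 1 library, 655 stayed and 9 no longer passed it, for AT5G38910, AT1G73120, CEL5, CASP1 and AN3. Named differences no longer passed it in 9 values under alternatives that keep every library, for SWEET12 (against 1 d and 5 d), SEN1, AT5G66053, GASA5 and AT1G73120, and in 19 values without 1 library. Those of AT5G66053, GASA5, CYP82C2 and AT1G73120 between 3 d and 5 d made up these 19. SWEET12 against 1 d lost it with a pseudocount of 0.1 and with only the groups compared. Absolute depth is unknown, and genes near 0 FPKM in a group have fold changes that depend on the pseudocount. RPL3A, GLT1 and ATBFRUCT1 were listed at 0 in 10, 2 and 2 libraries of other times, which widened their spread, and were not called.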
